A study of Mus musculus with 9 samples.

Results

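Integrins are cell surface receptors made of 1 alpha and 1 beta subunit, which together bind the extracellular matrix or counter-receptors on other cells and link them, through talin and kindlin, to the actin cytoskeleton. The alpha subunit largely sets the ligand: alpha3 and alpha6 chains bind laminins, alpha2 binds collagen, alpha5 binds fibronectin, and alphav pairs with several beta chains to bind ligands such as vitronectin, fibronectin and osteopontin. In epithelial tumours of the colon these receptors are best known for anchoring cells to the basement membrane and for adhesion and migration at the invasive edge and in the liver. The subunits examined here were Itga2, Itga3, Itga5, Itga6, Itgav, Itgb1, Itgb3, Itgb4, Itgb5 and Itgb7, taken from the files by gene symbol. Of these 10, 9 were found among the 16399 genes of the files, and 8 were among the 11287 genes that reached at least 1 TPM (a transcript level scaled for transcript length and for the library total) in at least 3 libraries and were tested. Itgb1, the common beta chain of alpha2, alpha3, alpha5 and alpha6, was not analysed here, and Itgb4 was below the filter.

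Poly(A) RNA of cultured cells was measured in 9 libraries, 3 for each of 3 lines. MC38-P is the unselected mouse colon carcinoma line MC38, of C57BL/6 origin and carrying a GFP and luciferase label. MC38-LM3a and MC38-LM3b are derivatives of it, recovered after 3 rounds of injection into the spleen, resection of liver metastases and regrowth in culture, and they carry the same label. The study calls them independently derived, and it names MC38-LM1 and MC38-LM2 for the earlier rounds, so those rounds may be shared. Each derivative is thus a single selected population, and the replicates are samples of it, described as biological replicates. The p-values measure the spread between these samples, not between independent selections. The labels call the cells colonic epithelial cells. Of 14 epithelial markers, 7 reached 1 TPM in at least 1 library, among them Krt8 and Krt18, while Cdh1 stayed at or below 0.08 TPM in every library. The summed level of the epithelial markers was 2005 to 2319 TPM in MC38-P, 1593 to 1812 TPM in MC38-LM3a and 1586 to 1630 TPM in MC38-LM3b. Most of that sum was Krt8 and Krt18, which both lie on chromosome 15. Of the 6 tested epithelial markers, 4 were lower in both derivatives (Krt8, Krt18, Epcam and Cdx2), as were 9.07% of all tested genes, while Krt19 and Krt20 were higher in MC38-LM3a, by 0.39 (adjusted p = 0.00358) and 0.55 (adjusted p = 0.0344) on the log2 scale. Cdx2 reached 1 TPM only in MC38-P libraries, and Krt20 in none of them. Each was thus tested only through lines where it was higher, and no conclusion is drawn from those tests. The part of the epithelial markers in the results below was not tested.

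The number of genes at 1 TPM or more ranged from 10875 to 11218 over the libraries, and across genes the correlation of 2 libraries was 0.969 to 0.997. The files give no read counts, so the depth behind a value is unknown and intervals for counting cannot be computed. Replicate 3 of MC38-P and replicate 3 of MC38-LM3a stood apart from their groups along transcript length. The Spearman correlation across 11096 genes between length and the deviation from the group mean was 0.51, 0.41 and -0.62 for the MC38-P replicates, -0.55, -0.51 and 0.64 for those of MC38-LM3a, and within 0.02 of zero for those of MC38-LM3b. Values are therefore also given after each library was corrected for GC content and transcript length (called corrected values), and without those libraries where that matters. Leaving those 2 libraries out is not a correction for length. The median log2(TPM + 1) of the tested genes was 4.70 and 4.64 in the MC38-P libraries that remain. It was 4.52 and 4.49 in those of MC38-LM3a, so fold changes of MC38-LM3a in that fit are to be read against a lower baseline. Over all tested genes the median log2 fold change against MC38-P was -0.00 for MC38-LM3a and 0.21 for MC38-LM3b, and 0.01 for both after the correction, so a fold change in MC38-LM3b is best read against 0.21. Fold changes are on the scale of log2(TPM + 1), which understates the change of low genes such as Itga2.

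The transcript levels of the subunits spanned a wide range in MC38-P. Itgb7 was the highest, at 196 ± 4.63 TPM (SD, n = 3, as for all levels below). Itga3 (111 ± 13.5 TPM), Itga5 (110 ± 18.2 TPM), Itga6 (103 ± 16.3 TPM), Itgb5 (100.4 ± 9.25 TPM) and Itgav (93.2 ± 17.1 TPM) followed and lay within their spread of each other. Itgb3 was at 15.1 ± 2.51 TPM, Itga2 at 2.71 ± 0.62 TPM and Itgb4 at 0.0667 ± 0.0404 TPM. In MC38-LM3b the order had changed. Itga3 led at 208 ± 5.22 TPM, Itgb7 (172 ± 9.99 TPM), Itgav (168 ± 1.94 TPM) and Itga6 (155 ± 1.12 TPM) came next, and Itgb5 (105 ± 8.11 TPM) and Itga5 (102 ± 1.97 TPM) stood together below them.

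**Figure D1:**
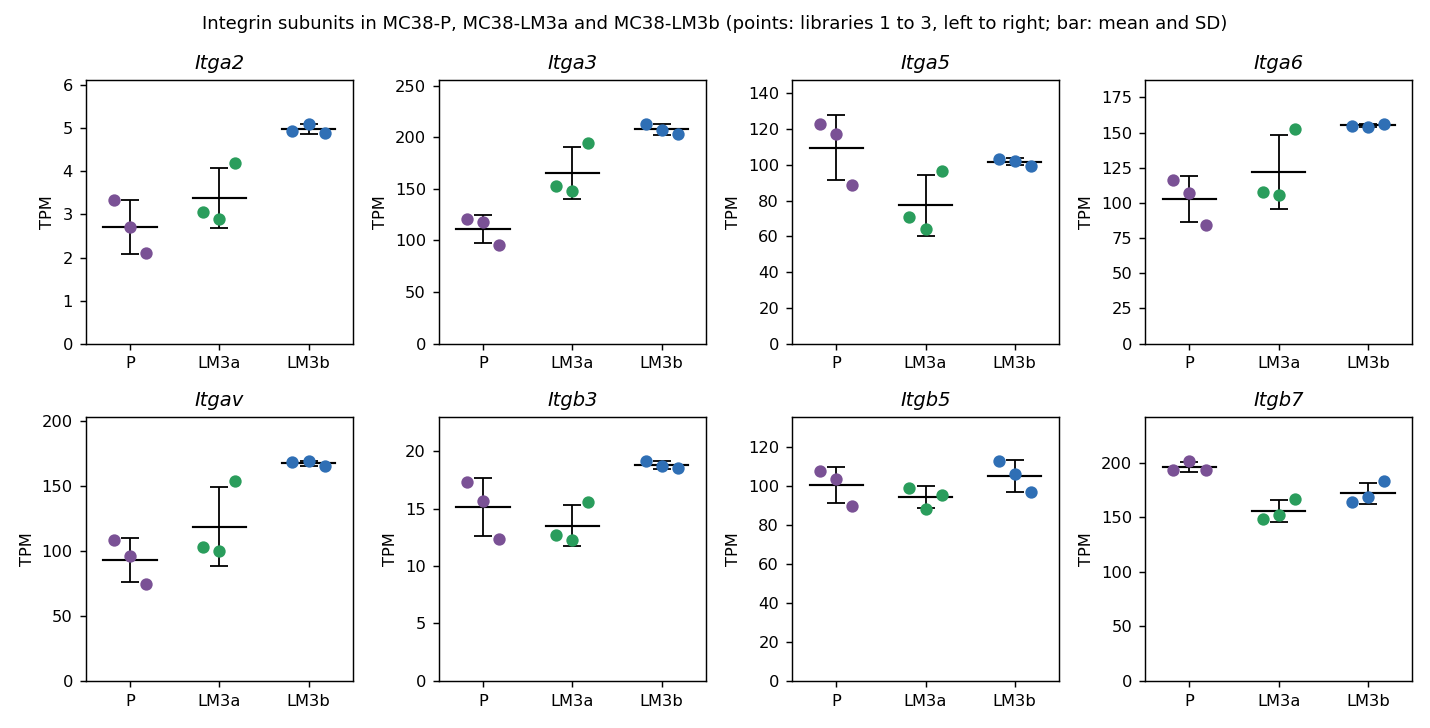
Transcript level in TPM (vertical axis, from 0) of the 8 tested integrin subunits in the 3 replicates of MC38-P (P), MC38-LM3a and MC38-LM3b. Points are libraries, horizontal lines are means and bars are SD. Itga3 rose from 111 TPM to 165 and 208 TPM in the derivatives with no overlap between the groups, and Itgb7 fell from 196 to 156 and 172 TPM.

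In MC38-LM3a, 3 of the 8 tested subunits changed against MC38-P at an adjusted p-value under 0.05, 1 higher (Itga3) and 2 lower (Itga5 and Itgb7). Of all tested genes, 28% changed in that comparison, 14.1% higher and 13.8% lower. In MC38-LM3b, 5 of 8 changed, 4 higher (Itga2, Itga3, Itga6 and Itgav) and 1 lower (Itgb7), beside 46.7% of all tested genes, 35.6% higher and 11.2% lower. With corrected values 6 of 8 changed in each derivative, and they were the same genes: Itga2, Itga3, Itga6 and Itgav were higher and Itga5 and Itgb7 were lower, beside 51.1% of all genes in MC38-LM3a (26.5% higher, 24.6% lower) and 57.6% in MC38-LM3b (29.3% higher, 28.3% lower). Changes in both derivatives in the same direction were found for Itga3 (higher, as for 13.3% of all tested genes) and Itgb7 (lower, as for 9.07%). After correction 4 members were higher in both, beside 22.7% of genes, and 2 were lower in both, beside 21.5%. The comparisons share the MC38-P libraries and are therefore not independent of each other. No subunit passed an absolute log2 fold change of 1, which 2.89% of genes passed together with the adjusted p-value in MC38-LM3a and 3.93% did so in MC38-LM3b.

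The laminin-binding alpha chains are described first. Itga3 encodes the alpha3 chain, which joins beta1 as a receptor for laminins of the basement membrane. Its level was 120, 118 and 96.01 TPM in the MC38-P replicates, 153, 148 and 194 TPM in MC38-LM3a, and 213, 207 and 203 TPM in MC38-LM3b. Every library of either derivative was above every MC38-P library, as for 20.3% and 51.3% of all tested genes. On the log2 scale Itga3 rose by 0.56 in MC38-LM3a (SE 0.111, adjusted p = 0.00374) and 0.90 in MC38-LM3b (SE 0.111, adjusted p = 1.53e-04). With corrected values it was 0.64 and 0.65, with SE 0.0349 in both. The call held when any single library was left out, in both derivatives. Without the MC38-P and MC38-LM3a libraries that stood apart, the log2 fold change in MC38-LM3a was 0.34 (adjusted p = 5.61e-05). Itga3 lies on chromosome 11, whose tested genes had medians of -0.00 and 0.20 in the same comparisons, and it exceeded 95.6% and 96.2% of them. In bulk RNA, more cells expressing a gene and more RNA per cell cannot be told apart.

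The sequence before the Itga3 start is shown because Itga3 was the subunit with the largest rise in both derivatives. RefSeq lists 2 starts for Itga3, and the files give a single value for the gene, so the starts cannot be told apart in these data. The windows hold the 250 bases before each start on the minus strand of GRCm38.p6, whereas the submitters' processing notes name GRCm39 for the files. Capitals mark matches, on either strand, to 6 short motifs. The RUNX motif was searched as TGTGGT and its variant as TGCGGT, included because the study concerns RUNX1. The AP-1 motif was searched as TGANTCA and the Sp1 motif as GGGCGG. The TATA box was searched as TATAAA and the core of the NF-kB motif as GGGANTTCC. The 2 windows are:
Itga3 upstream start, chr11:95076715-95076964: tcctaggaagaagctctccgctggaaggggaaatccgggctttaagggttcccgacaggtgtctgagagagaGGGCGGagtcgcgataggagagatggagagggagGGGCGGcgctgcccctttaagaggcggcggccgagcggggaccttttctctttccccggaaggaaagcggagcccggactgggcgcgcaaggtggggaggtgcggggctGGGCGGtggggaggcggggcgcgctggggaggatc
Itga3 downstream start, chr11:95069199-95069448: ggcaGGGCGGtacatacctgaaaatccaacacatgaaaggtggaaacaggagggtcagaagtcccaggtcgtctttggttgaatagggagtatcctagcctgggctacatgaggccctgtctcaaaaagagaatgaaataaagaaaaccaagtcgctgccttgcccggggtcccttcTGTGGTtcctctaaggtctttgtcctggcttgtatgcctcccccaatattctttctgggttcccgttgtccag
The upstream window held 3 GGGCGG matches, which began 178, 144 and 35 bases before the start, and 22 CpG dinucleotides. The downstream window held 1 GGGCGG, 1 TGTGGT that began 73 bases before the start, and 5 CpG. Across 16221 windows of the same length before the starts of 12859 genes in the files, 51.4% held the Sp1 letters and 11.4% the RUNX letters. The RUNX variant was in 6.83%, the AP-1 motif in 5.29%, the TATA box in 8.21% and the NF-kB core in 1.8%, and the median CpG number was 13. A match describes letters in the window and does not show that a factor binds there.

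Itga6, the alpha6 chain, also binds laminin, with beta1 or, in the hemidesmosomes of epithelial cells, with beta4. Its level was 116, 107 and 84.5 TPM in MC38-P, 108, 106 and 152 TPM in MC38-LM3a, and 155, 154 and 156 TPM in MC38-LM3b. All MC38-LM3b libraries were above all MC38-P libraries, as for 51.3% of all tested genes, whereas 2 of the MC38-LM3a libraries lay within the MC38-P range. Its log2 fold change was 0.24 in MC38-LM3a (SE 0.143, adjusted p = 0.253) and 0.60 in MC38-LM3b (SE 0.143, adjusted p = 0.00655). With corrected values Itga6 was higher in both, by 0.26 (adjusted p = 0.00763) and 0.39 (adjusted p = 5.19e-04). Without the libraries that stood apart, the MC38-LM3a value was -0.06 (adjusted p = 0.229).

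Itgb4, the other chain of the hemidesmosome receptor, was at 0.06, 0.03 and 0.11 TPM in MC38-P, 0.03, 0.01 and 0.07 TPM in MC38-LM3a, and 0.04, 0.1 and 0.14 TPM in MC38-LM3b. These levels were near the lowest value the files can show, and no comparison was made. Col17a1, a collagen of hemidesmosomes, was likewise at or below 0.14 TPM in every library. Of the hemidesmosome partners, 5 of 9 listed genes were tested, of which 1 was lower in MC38-LM3a, and 2 were higher and 1 lower in MC38-LM3b (1 higher and 2 lower in each with corrected values). Lamb3, the beta3 chain of laminin-332, was lower in both derivatives, with levels of 1.15 to 1.78 TPM in MC38-P, 0.79 to 0.91 TPM in MC38-LM3a and 0.85 to 0.9 TPM in MC38-LM3b. Its log2 fold change was -0.44 (SE 0.122, adjusted p = 0.0215) and -0.41 (SE 0.122, adjusted p = 0.019). Lamb3 reached 1 TPM only in MC38-P. It was thus tested only through the group where it was high, and no conclusion is drawn from that test.

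Itgav encodes the alphav chain, which pairs with beta3 and beta5 and recognises RGD motifs in matrix proteins. Its level was 109, 95.9 and 74.9 TPM in MC38-P, 103, 99.9 and 154 TPM in MC38-LM3a, and 168, 169 and 166 TPM in MC38-LM3b. The MC38-LM3b libraries were all above the MC38-P libraries (again as for 51.3% of genes), and in MC38-LM3a only replicate 3 was. Its log2 fold change was 0.34 in MC38-LM3a (SE 0.165, adjusted p = 0.16) and 0.86 in MC38-LM3b (SE 0.165, adjusted p = 0.00208). With corrected values Itgav was higher in both, by 0.40 (adjusted p = 1.52e-04) and 0.58 (adjusted p = 9.66e-06). Without the libraries that stood apart, the MC38-LM3a value was -0.01 (adjusted p = 0.879), and the part of transcript length, 7054 bases for Itgav, in the differences among these versions was not tested.

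Of the beta chains that pair with alphav, Itgb3 and Itgb5 were tested, and neither passed in either derivative with all libraries in the fit. Itgb3, the beta3 chain, was at 17.3, 15.7 and 12.4 TPM in MC38-P, 12.7, 12.3 and 15.6 TPM in MC38-LM3a, and 19.1, 18.7 and 18.5 TPM in MC38-LM3b. MC38-LM3b libraries lay above the MC38-P libraries, as for 51.3% of genes, but the log2 fold change of 0.31 did not pass the test (SE 0.131, adjusted p = 0.0751), and it was 0.05 with corrected values (adjusted p = 0.427). It passed without MC38-P replicate 1 (0.41, adjusted p = 0.0346) and without MC38-LM3a replicate 3 (0.31, adjusted p = 0.0339). In MC38-LM3a it was -0.15 (adjusted p = 0.461). Without the libraries that stood apart, Itgb3 was lower in MC38-LM3a (-0.37, adjusted p = 8.47e-04) and higher in MC38-LM3b (0.18, adjusted p = 0.0253). Itgb5, the beta5 chain, which forms a vitronectin receptor with alphav, was at 108, 103 and 90.1 TPM in MC38-P, 99.2, 88.4 and 95.7 TPM in MC38-LM3a, and 113, 106 and 96.8 TPM in MC38-LM3b. The 3 groups overlapped. Its log2 fold changes were -0.09 (SE 0.087, adjusted p = 0.518) and 0.07 (SE 0.087, adjusted p = 0.527), and the second was -0.11 with corrected values (adjusted p = 0.168).

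Itga2, the collagen-binding alpha2 chain, was expressed at a low level. It was at 3.34, 2.7 and 2.1 TPM in MC38-P, 3.06, 2.9 and 4.19 TPM in MC38-LM3a, and 4.94, 5.11 and 4.89 TPM in MC38-LM3b. MC38-LM3b was above MC38-P in every library, as for 51.3% of genes, and MC38-LM3a overlapped with it. Its log2 fold change was 0.24 in MC38-LM3a (SE 0.152, adjusted p = 0.278) and 0.70 in MC38-LM3b (SE 0.152, adjusted p = 0.00413). With corrected values it was 0.31 (adjusted p = 0.00497) and 0.43 (adjusted p = 5.45e-04). Without the libraries that stood apart, the MC38-LM3a value was -0.01 (adjusted p = 0.939).

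Itga5 encodes the alpha5 chain of the fibronectin receptor. Its level was 123, 117 and 88.9 TPM in MC38-P, 71.1, 64.2 and 96.5 TPM in MC38-LM3a, and 103, 102 and 99.6 TPM in MC38-LM3b. Replicates 1 and 2 of MC38-LM3a were below all MC38-P libraries, replicate 3 was within their range, and so were all MC38-LM3b libraries. Its log2 fold change was -0.51 in MC38-LM3a (SE 0.15, adjusted p = 0.0278) and -0.09 in MC38-LM3b (SE 0.15, adjusted p = 0.621). With corrected values Itga5 was lower in both, with log2 fold changes of -0.44 (adjusted p = 1.46e-04) and -0.33 (adjusted p = 8.31e-04). The MC38-LM3a call was lost without MC38-P replicate 1 (-0.42, adjusted p = 0.0965) or 2 (-0.45, adjusted p = 0.101) and without MC38-LM3a replicate 1 (-0.46, adjusted p = 0.0908) or 2 (-0.39, adjusted p = 0.101). At the same fold change of -0.51 it was also lost with replicate number as a block (adjusted p = 0.0763). The same held with no filter (0.0566) and with only the 2 groups fitted (0.0737). Without the libraries that stood apart the MC38-LM3a value was -0.82 (adjusted p = 1.86e-06), and the MC38-LM3b value was -0.24 (adjusted p = 0.00197). The MC38-LM3a value is to be read against the lower baseline of that fit.

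Itgb7 encodes the beta7 chain, which in lymphocytes pairs with alpha4 as a gut homing receptor or with alphaE as a receptor for E-cadherin. Its level was 193, 201 and 194 TPM in MC38-P, 149, 152 and 167 TPM in MC38-LM3a, and 164, 168 and 183 TPM in MC38-LM3b. All libraries of both derivatives were below all MC38-P libraries, as for 15.9% and 15.4% of tested genes. Its log2 fold change was -0.33 in MC38-LM3a (SE 0.0667, adjusted p = 0.00399) and -0.19 in MC38-LM3b (SE 0.0667, adjusted p = 0.0367), or -0.27 and -0.33 with corrected values (adjusted p = 0.0047 and 0.00131). The MC38-LM3a call held when any single library was left out. The MC38-LM3b call was lost without MC38-P replicate 1 (-0.20, adjusted p = 0.0559), 2 (-0.17, adjusted p = 0.108) or 3 (-0.20, adjusted p = 0.0588) and without MC38-LM3b replicate 1 (-0.16, adjusted p = 0.138) or 2 (-0.18, adjusted p = 0.112). It was also lost with replicate number as a block, as given in the closing section. The known alpha partners of beta7 were near the lowest value the files can show. Itga4 was at most 0.05 TPM and Itgae at most 0.11 TPM in any library, beside at least 148.5 TPM of Itgb7.

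Both subunits that were lower lie on chromosome 15, whose tested genes had a lower median than those of any other chromosome in both derivatives. The 464 tested genes of chromosome 15 had a median log2 fold change of -0.53 for MC38-LM3a, with the middle of the distribution between -0.70 and -0.28 (quartiles), and of -0.31 for MC38-LM3b. Among them 68.1% and 47.8% were called lower. With corrected values the median was -0.50 in both derivatives, and 80.3% and 79.5% were lower. Itga5 was 0.02 above the chromosome median in MC38-LM3a and 0.22 above it in MC38-LM3b, and Itgb7 was 0.20 and 0.12 above it. In the same order, Itga5 exceeded 51.9% and 71.6% of the genes on the chromosome, and Itgb7 exceeded 70.9% and 63.8%. A change of these subunits and a change of the whole chromosome cannot be told apart here. The chromosomes of the 6 other tested subunits, 2, 11, 13 and 16, had medians between -0.00 and 0.01 in MC38-LM3a and between 0.18 and 0.23 in MC38-LM3b.

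**Figure D2:**
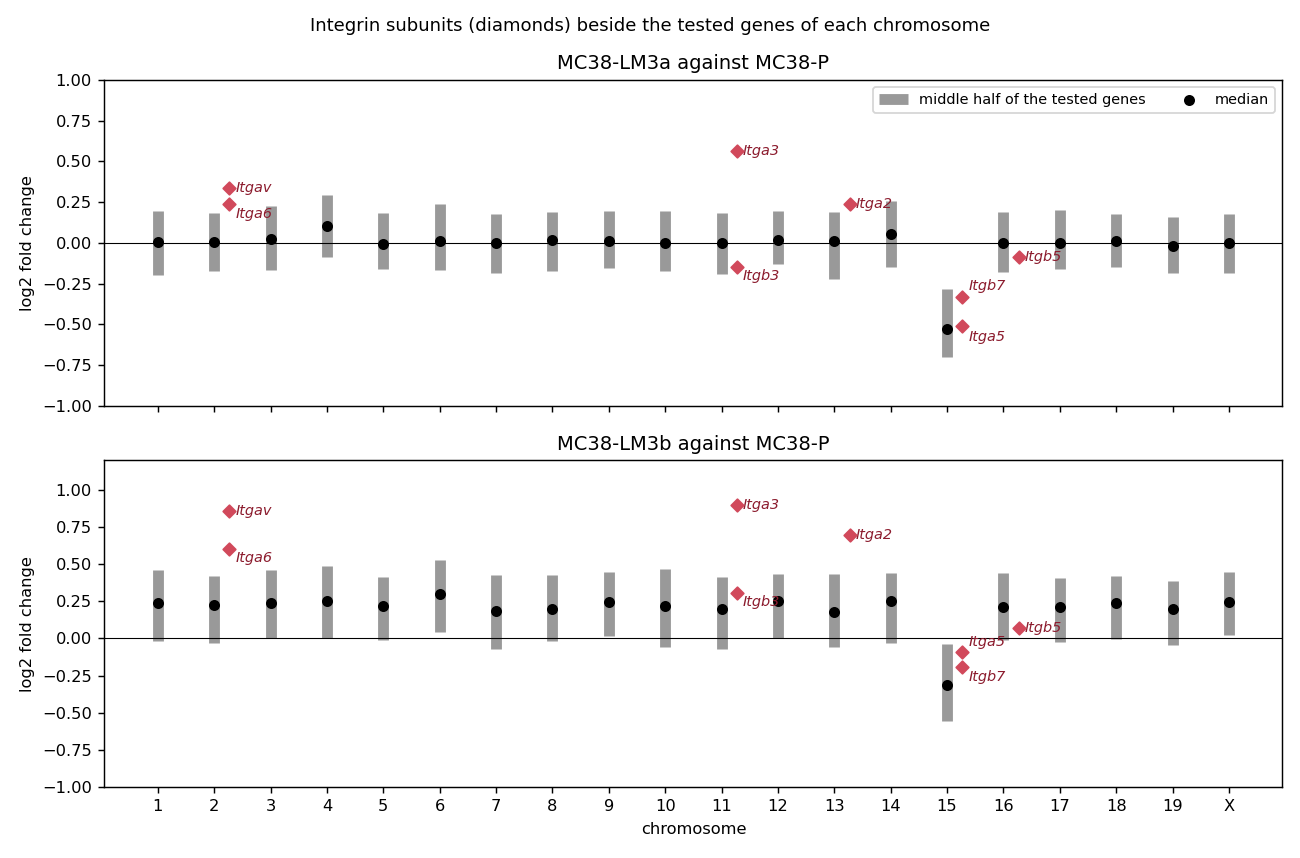
Log2 fold change against MC38-P (vertical axis) of the 8 tested integrin subunits, drawn as diamonds, beside the tested genes of each chromosome (horizontal axis), with the median as a black point and the quartiles as a grey bar. Chromosome 15, with Itga5 and Itgb7, had medians of -0.53 (MC38-LM3a) and -0.31 (MC38-LM3b), below every other chromosome shown.

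The promoters of Itga5 and Itgb7 are shown because these were the members that were lower. The windows are again the 250 bases before the RefSeq start on the minus strand of GRCm38.p6, with capitals for the same letters:
Itga5, chr15:103366792-103367041: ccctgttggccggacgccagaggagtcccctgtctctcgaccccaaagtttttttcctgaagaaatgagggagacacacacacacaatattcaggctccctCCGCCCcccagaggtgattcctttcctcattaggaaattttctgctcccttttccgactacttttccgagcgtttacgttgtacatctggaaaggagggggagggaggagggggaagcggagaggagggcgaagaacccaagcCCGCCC
Itgb7, chr15:102231936-102232185: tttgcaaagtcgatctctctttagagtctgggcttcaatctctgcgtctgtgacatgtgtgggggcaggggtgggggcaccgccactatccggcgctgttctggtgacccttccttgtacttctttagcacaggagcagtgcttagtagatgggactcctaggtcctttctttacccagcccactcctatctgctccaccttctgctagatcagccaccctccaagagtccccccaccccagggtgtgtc
The Itga5 window held 2 matches to GGGCGG, both on the opposite strand (printed as CCGCCC), beginning 149 and 6 bases before the start, and 11 CpG. The Itgb7 window held none of the letters searched and 5 CpG. The windows of Itga2 and Itgav also held none of them, and that of Itgb5 held 3 GGGCGG matches. No window was found in the table used for Itga6, Itgb3 and Itgb4.

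**Figure D3:**
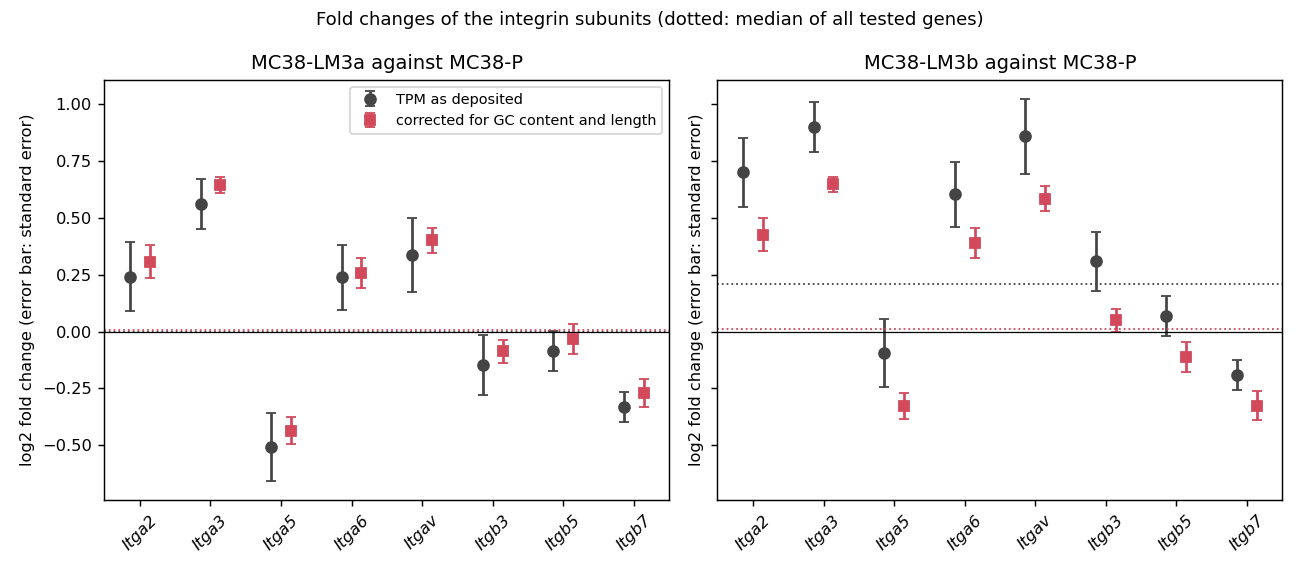
Log2 fold change against MC38-P (vertical axis, error bars SE) of the 8 tested subunits in MC38-LM3a and MC38-LM3b, from TPM as deposited (grey circles) and from corrected values (red squares). Dotted lines mark the median of all tested genes, 0.21 in MC38-LM3b for TPM as deposited. Itga3 was at 0.64 and 0.65 after correction and Itga5 at -0.44 and -0.33.

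The make-up of the alpha chain transcripts within a library does not depend on how libraries are scaled against each other. It can still shift with the trend along transcript length described above, and the shares were not corrected for it. The shares below are descriptions without a test, and as they sum to a fixed total, a fall of one raises the others. Among the 17 alpha subunit genes with a value, summed TPM was between 358 and 490 in MC38-P, between 433 and 619 in MC38-LM3a and between 647 and 666 in MC38-LM3b. Itga5 held 25.1%, 25.7% and 24.8% of that sum in MC38-P, 15.8%, 14.8% and 15.6% in MC38-LM3a, and 15.5%, 15.6% and 15.4% in MC38-LM3b. Its share was thus lower in all 6 derivative libraries, replicate 3 of MC38-LM3a included. Itga3 held 24.6%, 25.9% and 26.8% in MC38-P, 34%, 34.3% and 31.4% in MC38-LM3a, and 32%, 31.6% and 31.4% in MC38-LM3b, higher in all 6. Itgav held 22.2%, 21% and 20.9% in MC38-P, 22.9%, 23.1% and 24.9% in MC38-LM3a, and 25.3%, 25.9% and 25.6% in MC38-LM3b. The share of Itga6 hardly moved, at 23.6% to 23.7%, 24% to 24.6% and 23.3% to 24.2%. Itga2 held under 1% in every library.

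The ratio of Itga5 to Itga3 TPM, fibronectin receptor to laminin receptor alpha chain, was 1.02, 0.992 and 0.926 in MC38-P. It was 0.465, 0.432 and 0.497 in MC38-LM3a and 0.485, 0.494 and 0.491 in MC38-LM3b. The derivatives lay close to each other and apart from MC38-P on this ratio. Itga3 per Itga6, both laminin-binding, was 1.04 to 1.14 in MC38-P, and it was 1.28 to 1.42 in MC38-LM3a and 1.3 to 1.38 in MC38-LM3b. Itgav per Itgb3 was 6.06 to 6.28, 8.09 to 9.91 and 8.8 to 9.06, and Itgav per Itgb5 was 0.832 to 1.01, 1.04 to 1.61 and 1.49 to 1.71. Thus alphav transcripts were more abundant relative to those of Itgb3 and of Itgb5 in every derivative library than in any MC38-P library. For Itgb5 the gap was narrow, 1.04 in MC38-LM3a replicate 1 against 1.01 in MC38-P replicate 1. The ratios were not corrected for transcript length, which was 7054 bases for Itgav, 5784 for Itgb3 and 3282 for Itgb5. How many other gene pairs separate the lines in this way was not computed.

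**Figure D4:**
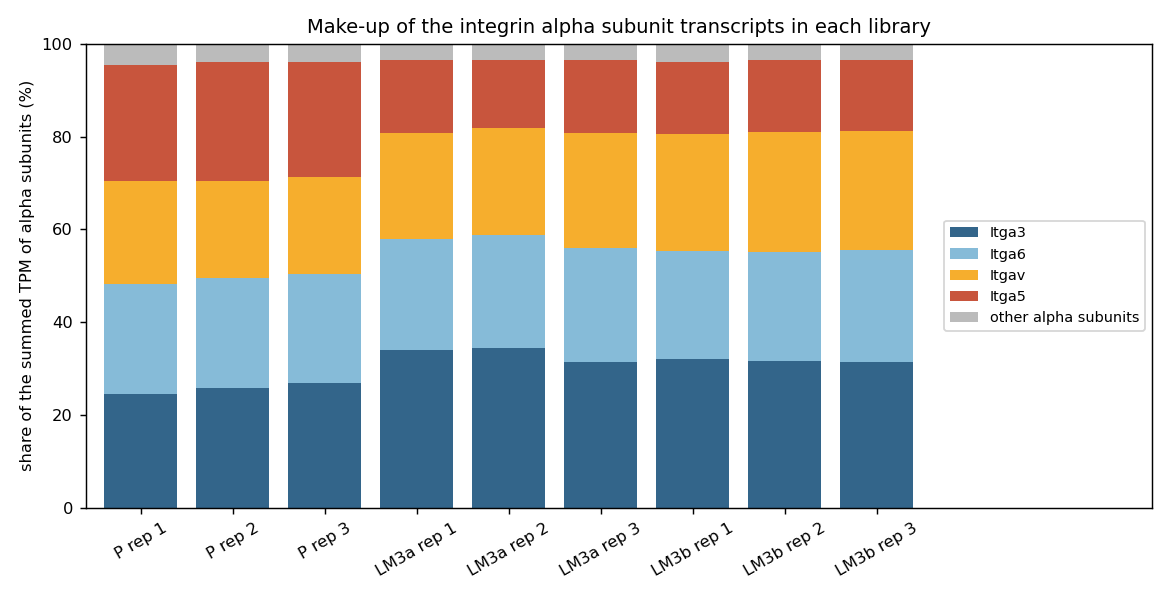
Share of each alpha subunit in the summed TPM of alpha subunits (vertical axis, percent) in each of the 9 libraries. Itga5 took 24.8% to 25.7% in MC38-P and 14.8% to 15.8% in the derivatives, and Itga3 took 24.6% to 26.8% and 31.4% to 34.3%.

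Among the 6 beta subunit genes with a value, Itgb1 not being analysed, Itgb7 held 57.9%, 60.2% and 62.4% of summed TPM in MC38-P, 51.6%, 54% and 53.7% in MC38-LM3a, and 49.2%, 51.1% and 54.4% in MC38-LM3b. Itgb5 held 28.8% to 34.4% and Itgb3 3.99% to 5.75% over all libraries. The share of Itgb2 was higher in all 6 derivative libraries. This is the beta2 chain of leukocyte integrins, which is not one of the 10 subunits. It held 4.64%, 4.22% and 4.51% in MC38-P, 9.55%, 10.1% and 10.6% in MC38-LM3a, and 11.1%, 11% and 11.3% in MC38-LM3b.

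The derivatives were also compared with each other, to see whether they reached the same subunit levels. By limma, 0 of the 8 subunits differed between MC38-LM3b and MC38-LM3a at an adjusted p-value under 0.05, beside 0.0532% of all tested genes, while 6 of the 8 had an unadjusted p-value under 0.05, beside 38.1% of all tested genes. The fold changes were all positive on TPM as deposited, with a median of all tested genes of 0.21: 0.52 for Itgav, 0.46 for Itga2, 0.45 for Itgb3, 0.41 for Itga5, 0.37 for Itga6, 0.34 for Itga3, 0.15 for Itgb5 and 0.14 for Itgb7, with adjusted p-values from 0.119 to 0.189. Itga2, Itga3, Itga5, Itga6, Itgav and Itgb3 were higher in every MC38-LM3b library than in every MC38-LM3a library, as for 38.4% of all tested genes. With corrected values 0 of the 8 passed as well, beside 0.207% of all genes. The corrected differences lay between -0.08 (Itgb5) and 0.18 (Itgav), and Itga3 was at 0.00 (SE 0.0349). Without MC38-LM3a replicate 3 the count was 7 of 8, beside 56.3% of all tested genes, with Itgb5 the exception, and log2 fold changes from 0.19 (Itgb7) to 0.72 (Itgav). On TPM as deposited, the count between the derivatives thus rested on that library.

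Integrin subunits outside the 10 were looked at by the same test. Of 17 such genes listed, 14 had a value and 4 were tested. Itgb2 was at 15.5, 14.1 and 14 TPM in MC38-P, 27.5, 28.3 and 33 TPM in MC38-LM3a, and 36.8, 36.3 and 38.1 TPM in MC38-LM3b. It rose by 0.97 in MC38-LM3a (SE 0.0923, adjusted p = 3.72e-05) and 1.29 in MC38-LM3b (SE 0.0923, adjusted p = 3.82e-06) on the log2 scale, with no overlap between groups (20.3% and 51.3% of all tested genes were higher without overlap), and by 0.98 and 1.13 with corrected values. Its alpha partners did not accompany it: Itgal was at most 0.02 TPM, and Itgam and Itgax were each at most 0.05 TPM, in any library. The leukocyte gene Ptprc was at most 0.09 TPM. All 3 tested leukocyte markers, Cd14, Cd68 and Itgb2, were called higher in both derivatives, beside 13.3% of all tested genes. With corrected values the same 3 were higher in both, beside 22.7%. For MC38-P, MC38-LM3a and MC38-LM3b in that order, mean Cd68 was 28.8, 36.6 and 43.4 TPM. Mean Cd14 was 10.7, 14.4 and 15 TPM in the same order. The part of leukocytes in these rises was not tested. The summed level of the 10 leukocyte markers with a value, Itgb2 included, was 53.01 to 56.1 TPM in MC38-P, 76.4 to 86.8 TPM in MC38-LM3a and 93 to 98.4 TPM in MC38-LM3b, and only Cd14, Cd68 and Itgb2 reached 1 TPM.

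The collagen-binding chain Itga10 was at 3.96 to 7.51 TPM in MC38-P, 4.78 to 8.87 TPM in MC38-LM3a and 8.81 to 10.1 TPM in MC38-LM3b, with a log2 fold change of 0.15 (adjusted p = 0.675) and 0.72 (adjusted p = 0.0272). Itga1, also a collagen receptor chain, did not pass the test in either derivative (-0.42, adjusted p = 0.105, and -0.15, adjusted p = 0.503). The laminin-binding Itga7 did not either (-0.21, adjusted p = 0.264, and -0.00, adjusted p = 0.987). With corrected values both were lower in MC38-LM3b, Itga1 by -0.43 (adjusted p = 0.0152) and Itga7 by -0.22 (adjusted p = 0.0383).

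Ligands, linkers and regulators of integrins were described from lists, by counts alone. Over all lists together, 139 of 179 genes were tested. In MC38-LM3a 33 were higher and 22 lower, beside 14.1% and 13.8% of all tested genes, and in MC38-LM3b 84 were higher and 13 lower, beside 35.6% and 11.2%. With corrected values the counts were 60 and 30 in MC38-LM3a, beside 26.5% and 24.6% of all genes, and 65 and 30 in MC38-LM3b, beside 29.3% and 28.3%. The counts of the single lists are to be read against the same shares. The median log2 fold change of these genes was 0.11 and 0.34, against -0.00 and 0.21 for all tested genes, and 0.11 and 0.12 with corrected values, against 0.01 in both.

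Of the 9 list genes that passed an absolute log2 fold change of 1 in MC38-LM3a, 7 were ligands, and of the 12 in MC38-LM3b, 9 were, beside 2.89% and 3.93% of all tested genes and with ligands making up 31 of the 139 tested list genes. These counts include Thbs2, Col6a2 and Nedd9, and for MC38-LM3b Dok2, which were tested only through lines where they were high. Of 31 ligand genes tested, 3 were higher and 12 lower in MC38-LM3a, and 15 higher and 7 lower in MC38-LM3b, with medians of -0.03 and 0.23. With corrected values 12 were higher and 12 lower in each. Fn1, which encodes fibronectin, the ligand of alpha5beta1, was at 63.8, 61.8 and 39.9 TPM in MC38-P, 13.7, 11.8 and 20.2 TPM in MC38-LM3a, and 25.5, 23.5 and 24.3 TPM in MC38-LM3b. It fell by 1.79 in MC38-LM3a (SE 0.202, adjusted p = 1.16e-04) and by 1.11 in MC38-LM3b (SE 0.202, adjusted p = 0.00149). Fn1, which lies on chromosome 1, was thus lower in both derivatives. A relation between its level and that of Itga5 was not tested.

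Chains of collagens VI, I and III fell as well. Col6a1, a chain of the microfibrillar collagen VI, was at 18.3, 15.4 and 12.7 TPM in MC38-P, 1.84, 1.13 and 2.47 TPM in MC38-LM3a, and 2.53, 2.45 and 2.07 TPM in MC38-LM3b. Its log2 fold changes were -2.56 (SE 0.184, adjusted p = 5.29e-06) and -2.29 (SE 0.184, adjusted p = 9.47e-06). Those of Col6a2 were -1.61 and -1.59, those of Col1a1 -1.55 and -1.48 and those of Col3a1 -1.34 and -1.19, the last pair being chains of fibrillar collagens. Thbs2, which encodes the matricellular protein thrombospondin-2, was at 5.18 to 8.3 TPM in MC38-P and at most 0.09 TPM in any derivative library (log2 fold changes -2.97 and -2.94). Each of these genes was lower in every derivative library than in every MC38-P library, as for 15.9% of all tested genes in MC38-LM3a and 15.4% for MC38-LM3b. Thbs2 and Col6a2 (at most 0.21 TPM in the derivatives) reached 1 TPM only in MC38-P. They were thus tested only through the group where they were high, and no conclusion is drawn from their tests. Their fold changes also depend on the 1 TPM added before taking logs. Not all collagen ligands were lower. Col4a1 and Col4a2, chains of the basement membrane collagen IV, rose in MC38-LM3b by 0.80 (adjusted p = 0.00229) and 0.62 (adjusted p = 0.00501), and their values in MC38-LM3a were 0.37 (adjusted p = 0.108) and 0.21 (adjusted p = 0.302). With corrected values they were higher in both derivatives, Col4a1 by 0.48 and 0.52 and Col4a2 by 0.35 in each. Col5a1 and Col6a3 were lower in MC38-LM3a (-0.71, adjusted p = 0.0105, and -0.54, adjusted p = 0.0106) and did not pass in MC38-LM3b, and Col18a1 was higher in MC38-LM3b (0.34, adjusted p = 0.0329) and at -0.05 in MC38-LM3a (adjusted p = 0.804). Among the fibroblast and stellate cell markers, which include Col1a1 and Col3a1, 7 of 9 had a value and 4 reached 1 TPM, with a sum of 136 to 174 TPM in MC38-P, 54.7 to 73.3 TPM in MC38-LM3a and 66.4 to 73.3 TPM in MC38-LM3b. Col3a1 made up most of that sum, at 123 to 154 TPM in MC38-P. Of the 4 that were tested, Col1a1 and Col3a1 were lower in both derivatives, whereas Pdgfrb, a receptor of stellate cells and fibroblasts, rose in MC38-LM3b by 0.88 (adjusted p = 6.95e-04). The part of such cells was not tested. Over all libraries the hepatocyte markers with a value summed to at most 1.04 TPM, the endothelial markers to at most 1.9 TPM and the platelet markers to at most 6.29 TPM.

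On TPM as deposited, 3 ligands rose in both derivatives: Vcam1, Nid1 and Edil3. This is beside 13.3% of all tested genes, and 7 ligands were lower in both, beside 9.07%. With corrected values 10 were higher and 11 lower in both, beside 22.7% and 21.5% of genes. Vcam1, the cell surface ligand of alpha4 integrins, was at 9.27, 9.14 and 7.95 TPM in MC38-P, 21.9, 21 and 23.5 TPM in MC38-LM3a, and 28, 28.9 and 29.1 TPM in MC38-LM3b. Its log2 fold changes were 1.24 (SE 0.0932, adjusted p = 7.25e-06) and 1.60 (SE 0.0932, adjusted p = 9.28e-07). Nid1, which encodes the laminin-binding basement membrane protein nidogen-1, was at 352, 349.99 and 263 TPM in MC38-P, 439, 427 and 642 TPM in MC38-LM3a, and 652, 673 and 669 TPM in MC38-LM3b. It rose by 0.63 (adjusted p = 0.0104) and 1.06 (adjusted p = 3.69e-04), or by 0.68 and 0.79 with corrected values. Edil3, an RGD protein bound by alphav integrins, rose by 0.79 (adjusted p = 0.00161) and 1.18 (adjusted p = 9.63e-05) from 1.5 ± 0.392 TPM in MC38-P.

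Of the 26 tested activators and linkers to actin, 6 were higher and 3 lower in MC38-LM3a, and 18 higher and 1 lower in MC38-LM3b (13 and 4, and 16 and 4, with corrected values). Apbb1ip, the Rap1 effector RIAM that brings talin to integrins, rose by 0.54 (adjusted p = 0.00773) and 0.91 (adjusted p = 2.76e-04). Tln2, a talin, fell by 0.67 (adjusted p = 0.0071) and 0.54 (adjusted p = 0.0148) from 3.54 to 5.25 TPM in MC38-P. The other talin, Tln1, was at a much higher level and did not fall. It was at 104 to 143 TPM in MC38-P, 146 to 212 TPM in MC38-LM3a and 212 to 216 TPM in MC38-LM3b. Of all tested genes, 20.3% and 51.3% were likewise higher without overlap. Of the 8 inhibitors, 3 were higher and 1 lower in MC38-LM3a and 5 higher and 1 lower in MC38-LM3b (3 and 1, and 4 and 1, with corrected values). Dok2, an adaptor of the family that competes with talin, was at 0.52 to 0.7 TPM in MC38-P, 1.65 to 2.85 TPM in MC38-LM3a and 2.04 to 3.29 TPM in MC38-LM3b (log2 fold changes 0.91 and 1.13). Dok2 reached 1 TPM only in the derivatives, so it was tested only through the groups where it was high. No conclusion is drawn from that test. Ndrg1 fell by 1.12 and 0.95, and it lies on chromosome 15.

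Focal adhesion signaling genes numbered 31 tested, of which 7 were higher and 2 lower in MC38-LM3a and 20 higher and 1 lower in MC38-LM3b (14 and 4, and 16 and 3, with corrected values). Ptk2b, the kinase PYK2 related to focal adhesion kinase, rose by 0.61 (adjusted p = 0.0184) and 0.98 (adjusted p = 9.24e-04). Nedd9, a Cas family scaffold of focal adhesions, was at 2.52 to 3.56 TPM in MC38-P and 0.41 to 0.54 TPM in MC38-LM3a and 0.7 to 0.87 TPM in MC38-LM3b, and it fell by 1.44 (adjusted p = 2.1e-05) and 1.19 (adjusted p = 5.86e-05). Nedd9 reached 1 TPM only in MC38-P, so it was tested only through the group where it was high. No conclusion is drawn from that test. Of 16 tested tetraspanins and lateral partners, 5 were higher and 3 lower in MC38-LM3a and 8 higher and 3 lower in MC38-LM3b (6 and 6, and 6 and 5, with corrected values). Cd82, a tetraspanin that associates with integrins, was at 63.4 to 67.7 TPM, 96.6 to 98.7 TPM and 112 to 114 TPM in the 3 lines, with log2 fold changes of 0.58 (adjusted p = 5.08e-05) and 0.78 (adjusted p = 4.79e-06). Cd81, another tetraspanin, fell by 0.50 (adjusted p = 0.016) and 0.91 (adjusted p = 3.9e-04). Of 21 tested trafficking genes, 8 were higher and 1 lower in MC38-LM3a and 15 higher and 0 lower in MC38-LM3b, and 10 and 2, and 8 and 2, with corrected values. Rab4a, a GTPase of the rapid recycling route, rose by 0.48 (adjusted p = 0.0195) and 0.50 (adjusted p = 0.0114).

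**Figure D5:**
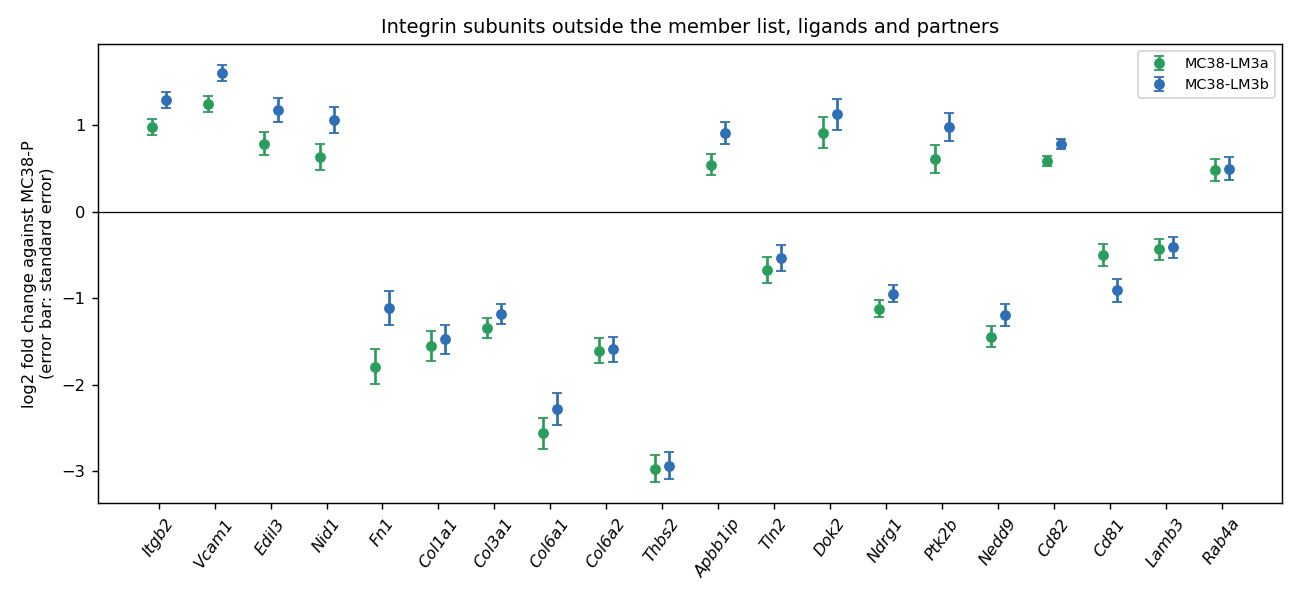
Log2 fold change against MC38-P (vertical axis, error bars SE) of Itgb2 and of ligands, linkers and regulators named in the text, in MC38-LM3a (green) and MC38-LM3b (blue). Col4a1, Col4a2, Col5a1, Col6a3, Col18a1 and Tln1, also named in the text, are not drawn. The largest falls were those of Thbs2 (-2.97 and -2.94) and Col6a1 (-2.56 and -2.29), and the largest rise was that of Vcam1 (1.24 and 1.60). Thbs2, Col6a2 and Nedd9 reached 1 TPM only in MC38-P, and Dok2 only in the derivatives, so they were tested only through lines where they were high.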

How the data were processed

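Poly(A) RNA of the 3 lines (3 libraries each, 9 in all) was sequenced on the DNBSEQ platform. The authors deposited TPM for 16399 genes. The submitters' processing notes name HISAT and GRCm39, and the study used DESeq2 on its own counts. As depth is unknown, no counting error is given. Groups came from the sample titles.

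Values were tested in R 4.3.3 with limma 3.58.1 (trended empirical Bayes) on log2(TPM + 1), in 1 fit to all 9 libraries, for the 11287 genes that reached 1 TPM in 3 or more libraries. P-values were adjusted by Benjamini-Hochberg over those genes. The threshold was an adjusted p-value under 0.05. Corrected values had a loess fit (span 0.3) on GC content and length, taken from GENCODE M21 and available for 98.3% of tested genes, removed from each library. The procedure was also run on simulated data, and no result of that run is used here.

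All members were named, other subunits that reached 1 TPM, and of each other list the genes past an absolute log2 fold change of 1, or else the largest rise and fall among those changed in both derivatives. Outside that rule, Ptk2b, Col4a1, Col4a2, Col5a1, Col6a3, Col17a1, Col18a1, Itga4, Itgae, Itgal, Itgam and Itgax and single cell type markers (Cdh1, Krt8, Krt18, Krt19, Krt20, Epcam, Cdx2, Pdgfrb, Ptprc, Cd14 and Cd68) were named after their values were seen. Tln1 was likewise named after its values were seen. Members and lists were chosen with earlier results of these data known. Promoters came from RefSeq (GRCm38.p6). Alternatives changed the pseudocount, filter, libraries fitted, scaling, variance prior and replicate block, and left out libraries. Leaving out 2 libraries together was chosen after seeing the data.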

Additional observations from a re-analysis of the deposited data

How the results depend on the processing

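Of the fold changes of single subunits under the alternatives, 416 kept direction and side of the threshold, 32 passed it newly, 14 lost it and 15 turned direction. In MC38-LM3a the count of changed subunits, 3, was 6 with corrected values, 6 with corrected values and the replicate block and 6 with centring on the median, and 2 to 3 when single libraries were left out. The count of list genes, 55, was 90 with corrected values, 85 with these and the block, 35 with only the 2 groups compared in the fit, 36 with the replicate block, 108 without replicate 3 of MC38-P and of MC38-LM3a together, and 34 (without MC38-P replicate 2) to 61 when single libraries were left out. In MC38-LM3b subunits ranged from 4 to 6 and list genes from 68 to 108 when single libraries were left out. Between the derivatives, subunits ranged from 0 to 7 and list genes from 0 to 104, the higher values without MC38-LM3a replicate 3, and without both libraries they were 7 and 113. Without MC38-LM3a replicate 3, 56.3% of all tested genes differed between the derivatives. With corrected values 51.1% of all genes changed in MC38-LM3a. For the other settings the share of all genes was not computed, so their counts are not a result about integrin genes.

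Without both libraries the MC38-LM3a values of Itga2, Itga6 and Itgav turned to -0.0101, -0.0631 and -0.0104, in a fit with a lower baseline for MC38-LM3a. Itgb5 in MC38-LM3b turned to -0.11 with corrected values, with or without the block, -0.0435 with quantile normalization, -0.15 with centring, and -0.00719 without both libraries, and ranged from -0.00719 (without MC38-P replicate 3) to 0.127 when single libraries were left out. Between the derivatives Itgb5 turned to -0.0792 with corrected values, with or without the block, and -0.0679 with centring, and Itgb7 to -0.0548 and -0.0818. The causes were not tested. With a filter of 5 TPM, Itga2 was not among the tested genes and has no value.

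Same-numbered replicates of MC38-P and MC38-LM3a deviated in opposite directions (r = -0.34, -0.17 and -0.66) and other pairs had r of 0.04 to 0.07. The labels do not say whether same-numbered replicates were handled together, and this was not tested. With the replicate block Itga5 in MC38-LM3a (-0.51) had an adjusted p of 0.0763 and Itgb7 in MC38-LM3b (-0.19) one of 0.0599. Itga5 also missed the threshold with no filter (0.0566) and with only the 2 groups fitted (0.0737), and Itgb7 with a prior without a trend (0.0726).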
